A study of Mus with 21 samples.

Results

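The 35 genes described here code for the hypoxia response and for glycolysis. They were taken by symbol from a fixed list, and all 35 were among the 18806 genes counted in 21 RNA-seq libraries of mouse skin wounds. When oxygen is low, the prolyl hydroxylases that mark the alpha subunits of the hypoxia-inducible factor (HIF) for destruction slow down, and HIF then switches on glucose transporters, glycolytic enzymes and genes of blood vessel growth, collagen maturation and mitochondrial turnover. Oxygen acts on the HIF alpha subunits mainly at the protein level, so their mRNA is not a readout of HIF activity. A fresh skin wound has cut vessels and many infiltrating leukocytes, and neutrophils and activated macrophages are known to rely heavily on glycolysis.

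The mice were wild-type C57BL/6 females, 8 weeks old, with full-thickness wounds of 8 mm punched on both sides of the back and held by splints. Tissue was taken on day 4 from 7 groups of 3 mice. The control wounds had no hydrogel scaffold. The other 6 groups had a scaffold of gelatin methacryloyl (GelMA), a light-cured gelatin hydrogel, set to pH 6.4, 7.4 or 8.4 and loaded with acidic fibroblast growth factor (aFGF) or basic fibroblast growth factor (bFGF), and are named by both, as in 6.4/aFGF. No group with an unloaded hydrogel was used here, so scaffold and growth factor cannot be told apart in the comparison with control.

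Total counts per library were 34362558 to 37817833 (median 36771838), and the lowest count of a member in any library was 79. Levels are given in CPM (counts relative to the TMM-scaled total of the library) for comparisons of a gene between libraries and in FPKM, which also divides by gene length, for comparisons between genes. The skin and wound markers were present in all 21 libraries: keratinocyte markers summed to 2868 to 7667 CPM, fibroblast markers to 32721 to 71717 CPM and macrophage markers to 2674 to 6327 CPM. Some libraries stood apart. Skeletal muscle markers ran from 327 CPM in 7.4/bFGF replicate 3 to 20227 CPM in 6.4/aFGF replicate 3. Neutrophil markers summed to 1269.7, 8291 and 777 CPM in the 3 control libraries and to between 3365 and 12752 CPM in the 18 hydrogel libraries, so that control replicates 1 and 3 were below every other library and control replicate 2 was not. In 3 libraries genes of another tissue appeared: cartilage markers at 377 CPM in 7.4/aFGF replicate 3, liver markers at 221 CPM in 8.4/aFGF replicate 2 and ovary markers at 829 CPM in 8.4/bFGF replicate 2. The members' median shift is given with and without these libraries in each comparison of groups that holds them. In bulk tissue, fewer cells of a type and less RNA per cell cannot be told apart.

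The glycolytic enzymes were among the most abundant members. Mean FPKM over the 21 libraries (± SD) was 666 ± 258 for Aldoa, the aldolase that splits fructose bisphosphate, and 428 ± 113 for Eno1, an enolase. It was 406 ± 112 for Tpi1, which interconverts the triose phosphates, 309.6 ± 83.0 for the pyruvate kinase Pkm, 269.7 ± 74.2 for the phosphoglycerate kinase Pgk1 and 236 ± 48.8 for Ldha, a subunit of lactate dehydrogenase. Aldoa differed from its neighbour Eno1 by less than its own SD, and the SDs of Eno1 and Tpi1 overlapped as well. Gpi1, the glucose phosphate isomerase, was at 171 ± 37.7 FPKM and Pgam1, a phosphoglycerate mutase, at 126 ± 34.5 FPKM. Gapdh, the glyceraldehyde phosphate dehydrogenase, was listed at 66.0 ± 15.4 FPKM, well below the enzymes on either side of it. Gapdh has many processed pseudogenes and the treatment of shared reads is not given in the sources used here, so its level is uncertain. Reads of Eno1 could likewise be shared with its near copy Eno1b, which stood at 5.68 to 16.1 CPM.

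Among the genes that sense oxygen, Hif1a (the alpha subunit of HIF-1) was at 114 ± 32.7 FPKM and Epas1 (that of HIF-2) at 50.4 ± 11.9 FPKM. The prolyl hydroxylase genes Egln1 and Egln3 were at 31.0 ± 7.91 and 36.3 ± 18.1 FPKM. Of the glucose transporters, Slc2a1 (GLUT1) was at 94.2 ± 43.5 FPKM and Slc2a3 (GLUT3) at 14.1 ± 9.19 FPKM, and the hexokinase genes Hk1 and Hk2, close to each other, were at 21.2 ± 6.35 and 19.7 ± 5.81 FPKM. The 3 phosphofructokinase genes lay within each other's SD, with Pfkl at 39.6 ± 13.0, Pfkm at 34.8 ± 29.8 and Pfkp at 29.7 ± 8.49 FPKM. Among the other targets, Ddit4, an inhibitor of mTOR signalling, was highest with 117 ± 40.6 FPKM, followed by Bnip3, a mitophagy receptor, with 97.6 ± 38.1 FPKM. Lowest of the 35 were Aldoc, the aldolase of brain, with 2.18 ± 0.865 FPKM, and Vldlr, the very low density lipoprotein receptor, with 2.26 ± 0.644 FPKM, which did not differ beyond their spread. The remaining 11 ran from 5.43 ± 3.32 FPKM for Ankrd37 to 84.2 ± 28.1 FPKM for Ndrg1, with Higd1a, a protein of the inner mitochondrial membrane, at 30.9 ± 5.58 FPKM and Kdm3a, a histone demethylase, at 10.0 ± 2.77 FPKM. The median of the 35 was 39.6 FPKM, 32 were above 10 FPKM and 10 were above 100 FPKM.

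The members differed more between single wounds than most genes did. The highest library was a median of 3.04 times the lowest over the members, against 2.21 times over the 14927 tested genes with a count in every library. The ratio ran from 1.99 for Gpi1 to 24.6 for Slc2a3, and was 16.2 for Pfkm, 9.03 for Ankrd37, an ankyrin repeat gene induced by HIF, and 7.39 for Slc2a1. Little of this followed the 7 groups. The share of a member's variance that lay between groups had a median of 21.6%, against 39.0% over all genes tested, where groups that did not matter would give 30%. It was highest for P4ha2, a catalytic subunit of the collagen prolyl hydroxylase (50.5%), Pdk1, the kinase that shuts off pyruvate dehydrogenase (47.1%), Hif1a (43.2%) and Pfkfb4, a regulator of phosphofructokinase activity (40.5%).

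The members moved together from library to library. Over the 21 libraries, all of which share the scaling to a total, the 595 pairs of members had a median Pearson's r of 0.64 in log2 CPM, and 0.712 once the group means were removed. Of these pairs, 540 (90.8%) were positive and 140 were above 0.8, whereas the median r of a member with the other tested genes was -0.0137. Pgk1 and Pkm were the closest pair, with r = 0.984. Eno1 had the highest median r with the other members, 0.812, and its closest member was Pgam1 (0.963). Pfkm, the muscle phosphofructokinase, went the other way, with a median r of -0.20, positive with 7 members and closest to Aldoa (0.798). Vldlr (median 0.02) and Aldoa (median 0.19) were next, and Pfkm was the closest member of both. Hif1a was closest to Slc2a3 (0.806) and least like Vldlr (-0.51).

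**Figure D1:**
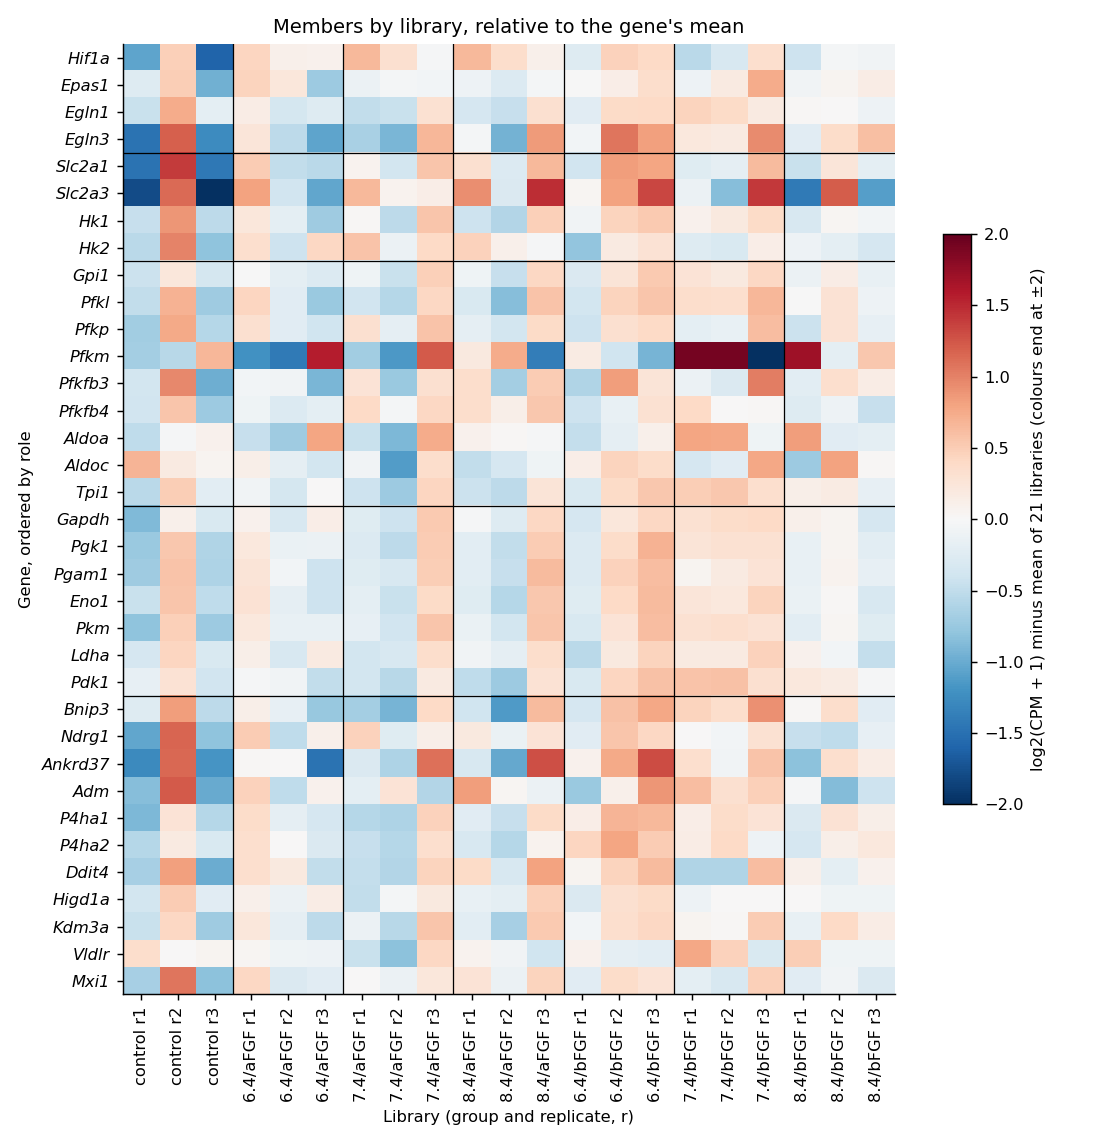
Each row is a member, ordered by role, and each column a library, named by group and replicate (r). Colours give log2(CPM + 1) minus the gene's mean over 21 libraries and end at ±2. Control r2 is red in most rows while control r1 and r3 are blue, and r3 of 7.4/aFGF and of 8.4/aFGF is red beside bluer libraries of the same group. The row of Pfkm has a pattern of its own.

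Whole libraries stood high or low in most members at once. Control replicate 2 was the highest of the 3 controls in 31 of 35 members (88.6%), against 40.6% of all genes tested, with a median log2 difference of 1.22 from the other 2 controls. It was the highest of all 21 libraries in 13 members, and control replicates 1 and 3 were the lowest of all 21 in 9 and 10 members. In the aFGF groups, replicate 3 of 7.4/aFGF and replicate 3 of 8.4/aFGF were each the highest of their group in 29 of 35 members (82.9%). Each was so in 37.1% of all genes tested. Replicate 1 of 6.4/aFGF was the highest in 28 members, against 31.75% of all genes tested. In 6.4/bFGF, replicate 1 was the lowest of its group in 33 of 35. The share of all genes in which a library was lowest was not counted. The replicates of 8.4/bFGF had no library that was highest in more than 20 members.

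These differences between wounds went with the markers of particular cell types. Each member was set against the summed CPM of 7 marker lists, 245 relations in all, with p-values adjusted over them. With the 8 neutrophil markers, 32 of 35 members had a positive r and 24 had an adjusted p under 0.05, each of these positive. The median r was 0.677, and 0.791 within groups. Slc2a3, a transporter of high affinity that leukocytes carry, was the closest, with Pearson's r of 0.894 and Spearman's rho of 0.881 over 21 libraries (permutation test, two-sided, adjusted p of 0.000408 and 0.000817), 0.925 within groups and 0.81 without the 2 libraries farthest from the median of the markers. Slc2a1 followed with Pearson's r of 0.87 and Spearman's rho of 0.848 over 21 libraries (permutation test, two-sided, adjusted p of 0.000408 and 0.000817), 0.936 within groups and 0.77 without the 2 farthest libraries. Pgk1 had Pearson's r of 0.727 and Spearman's rho of 0.722 over 21 libraries (permutation test, two-sided, adjusted p of 0.00102 and 0.0062), 0.791 within groups and 0.62 without the 2 farthest. The smallest unadjusted p that 100000 permutations can give is 1e-05, which the r of both transporters reached. The neutrophil markers and the members share the library and its scaling, and the part of neutrophil number in the members' levels was not tested further.

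With the 15 skeletal muscle markers, 4 members had an adjusted p under 0.05. Pfkm had Pearson's r of 0.931 and Spearman's rho of 0.93 over 21 libraries (permutation test, two-sided, adjusted p of 0.000408 and 0.000817), 0.974 within groups and 0.929 without the 2 farthest libraries. Aldoa, the aldolase of muscle, had Pearson's r of 0.748 and Spearman's rho of 0.751 over 21 libraries (permutation test, two-sided, adjusted p of 0.00163 and 0.00327), 0.829 within groups and 0.865 without the 2 farthest. Vldlr was also positive (r = 0.581, rho = 0.579, permutation adjusted p of 0.0432 and 0.0485), and Epas1 was negative (r = -0.63, rho = -0.59, permutation adjusted p of 0.0176 and 0.0437). Macrophage markers gave 4 members past the threshold, Aldoc, P4ha1, P4ha2 and Kdm3a, each with a negative r. Keratinocyte, fibroblast and adipocyte markers gave 1 negative relation each, and endothelial markers gave 0 by the p of Pearson's r, with r between -0.52 and 0.410, and 1 by that of Spearman's rho (Aldoa, rho = -0.603, permutation adjusted p = 0.0394). The counts given for the other lists are also by the p of Pearson's r.

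**Figure D2:**
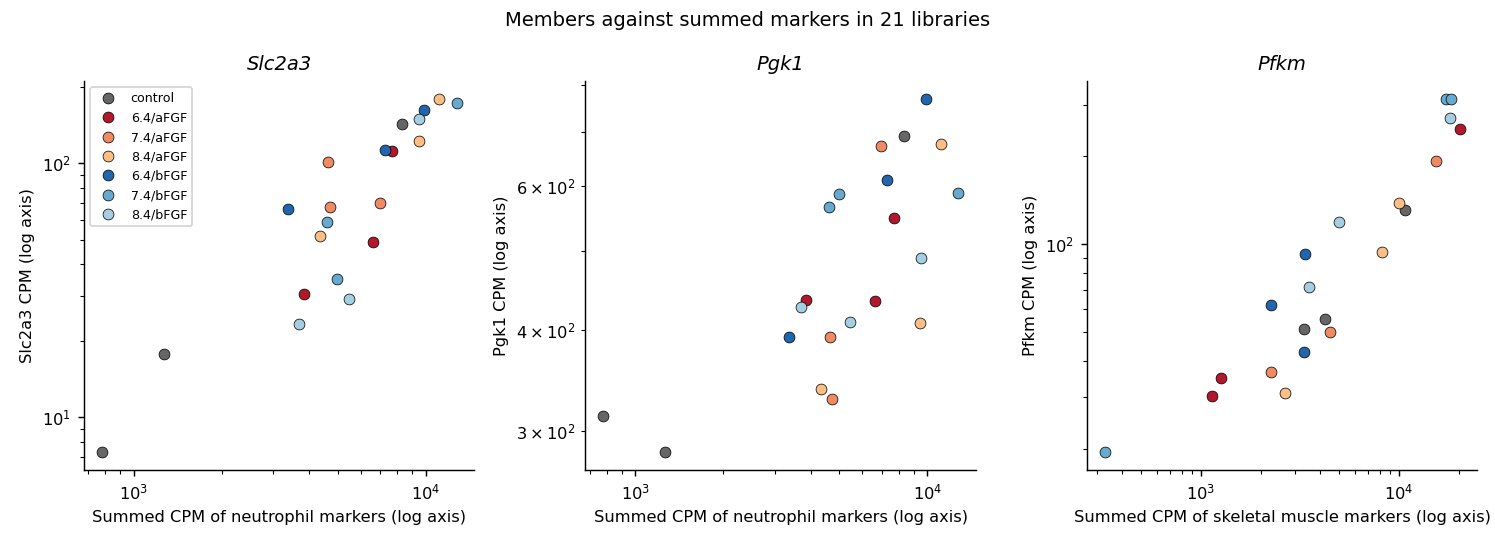
Points are the 21 libraries, coloured by group, on log axes. CPM of Slc2a3 and Pgk1 is plotted against the summed CPM of 8 neutrophil markers, and CPM of Pfkm against that of 15 skeletal muscle markers. Slc2a3 rises along the neutrophil axis from control replicates 1 and 3 at the lower left, and Pfkm follows muscle from 7.4/bFGF replicate 3 at the lower left to the 2 other 7.4/bFGF libraries at the upper right.

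Whether a hydrogel with growth factor changed these genes was asked first, by setting the mean of the 6 hydrogel groups against control in all 21 libraries. No member was called by edgeR's quasi-likelihood test (a log2 fold change past 0.58 in either direction with a Benjamini-Hochberg adjusted p below 0.05), which called 0.00632% of the 15811 genes tested, and 0 members had an unadjusted p under 0.05, against 16.7% of all genes. DESeq2 and limma called 0 as well, with 1 member each at an unadjusted p under 0.05. In 23 of 35 members the hydrogel groups were higher, with a median log2 fold change of 0.11, against -0.02 over all genes, and of 0.09 without the 3 libraries with cartilage, liver and ovary markers. No member had groups that did not overlap, which held for 0.582% of all genes.

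Hif1a had the smallest p. It measured 258, 748 and 178 CPM in the controls, and 369 to 843 CPM (median 577) in the 18 hydrogel libraries. Control replicates 1 and 3 were below all hydrogel libraries, and control replicate 2 lay among the highest of them. The log2 fold change was 0.60 ± 0.32 (SE), with an unadjusted p of 0.0765 and an adjusted p of 0.355 in edgeR. Gapdh measured 60.3, 119 and 90.1 CPM in the controls and 83.2 to 161 CPM (median 119) with hydrogel. Control replicate 1 was below all hydrogel libraries, control replicate 3 lay within their range and control replicate 2 was near their median. Its log2 fold change was 0.39 ± 0.21 (SE), with an adjusted p of 0.376 in edgeR. Epas1, at 172, 292 and 106 CPM in the controls and 124 to 346 CPM (median 203) with hydrogel, had a log2 fold change of 0.18 ± 0.24 (SE), within its error.

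**Figure D3:**
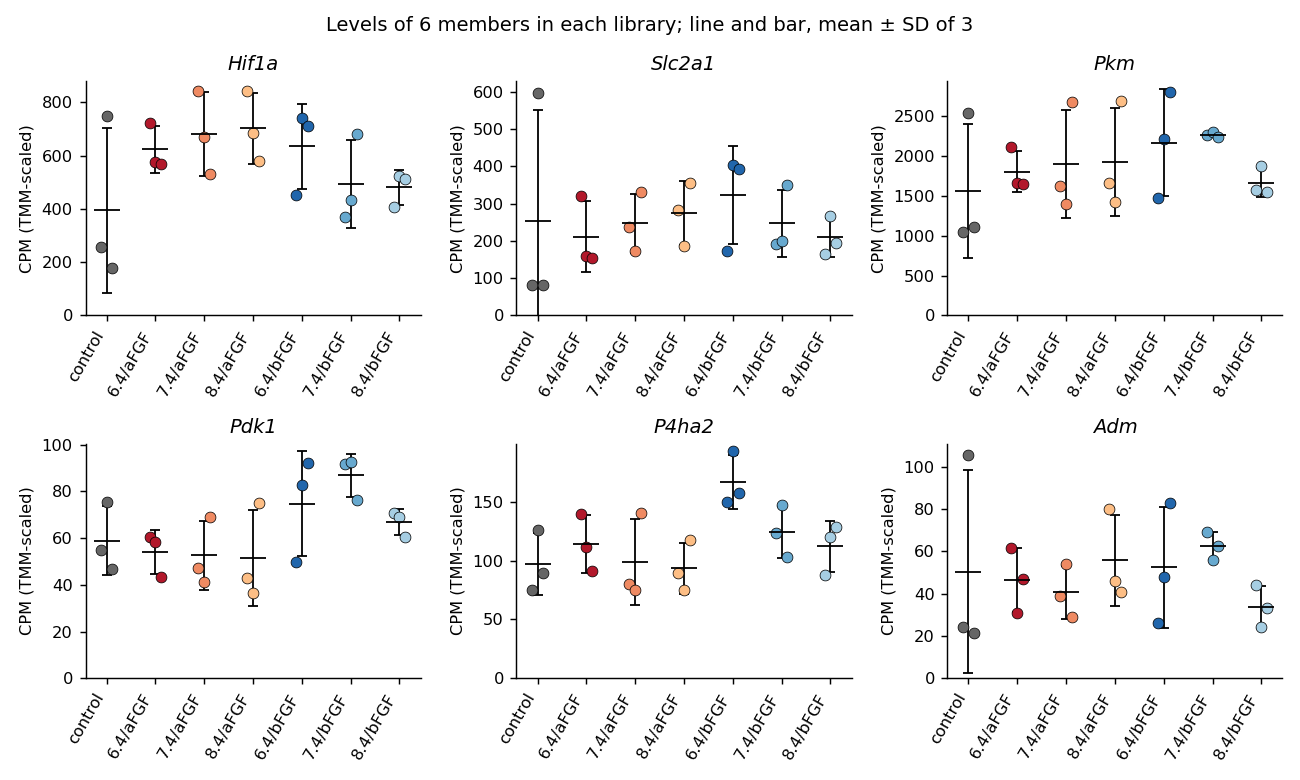
Points are single libraries in CPM on linear axes from 0, lines and bars the mean ± SD of 3 (a bar that would go below 0 ends there). In the control group of Hif1a, Slc2a1, Pkm and Adm, replicate 2 stands far above the other 2 libraries, and P4ha2 is highest in 6.4/bFGF.

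The comparison turned on control replicate 2. Without it, edgeR called 7 of the 35 members, all higher with hydrogel, against 3.62% of 16069 genes called higher, and 19 had an unadjusted p under 0.05, against 28.6% of all genes. In that fit 33 of 35 members were higher, with a median log2 fold change of 0.65. Hif1a gave 1.44 ± 0.27 (SE) on the log2 scale (edgeR, adjusted p = 0.00815). Slc2a1, at 80.7, 596 and 82.8 CPM in the 3 controls and 154 to 404 CPM (median 219) with hydrogel, gave 1.59 ± 0.40 (SE) (edgeR, adjusted p = 0.0228). Slc2a3, at 17.7, 142 and 7.28 CPM in the controls and 23.3 to 179 CPM (median 68.6) with hydrogel, gave 2.78 ± 0.86 (SE) (edgeR, adjusted p = 0.0487). In both transporters control replicates 1 and 3 were below all 18 hydrogel libraries, and control replicate 2 was above all of them for Slc2a1. How many of all genes were split in this way was not counted. Control replicate 2 was the highest control in 31 of 35 members, so leaving it out had to raise the fold change in them.

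The other called members were Ndrg1, a stress-responsive gene, with 0.96 ± 0.25 (SE), Mxi1, a MYC antagonist, with 0.79 ± 0.23 (SE), Pfkfb4 with 0.59 ± 0.18 (SE) and Pkm with 0.84 ± 0.26 (SE), at adjusted p of 0.0271, 0.0424, 0.0447 and 0.0474 in edgeR. With the full 21 libraries the same log2 fold changes were -0.08, -0.09, 0.13 and 0.31. By role, the median without that library was 1.03 for the 4 oxygen sensing genes, 1.16 for the 4 genes of glucose uptake and phosphorylation, 0.43 for the 9 of upper glycolysis, 0.63 for the 7 of lower glycolysis and 0.79 for the 11 other targets. Without control replicate 1 or replicate 3, 0 members were called by edgeR. The neutrophil markers moved with the result: the remaining controls were at 1270 and 777 CPM, below all hydrogel libraries, and control replicate 2 was at 8291 CPM. Their part in the result was not tested.

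**Figure D4:**
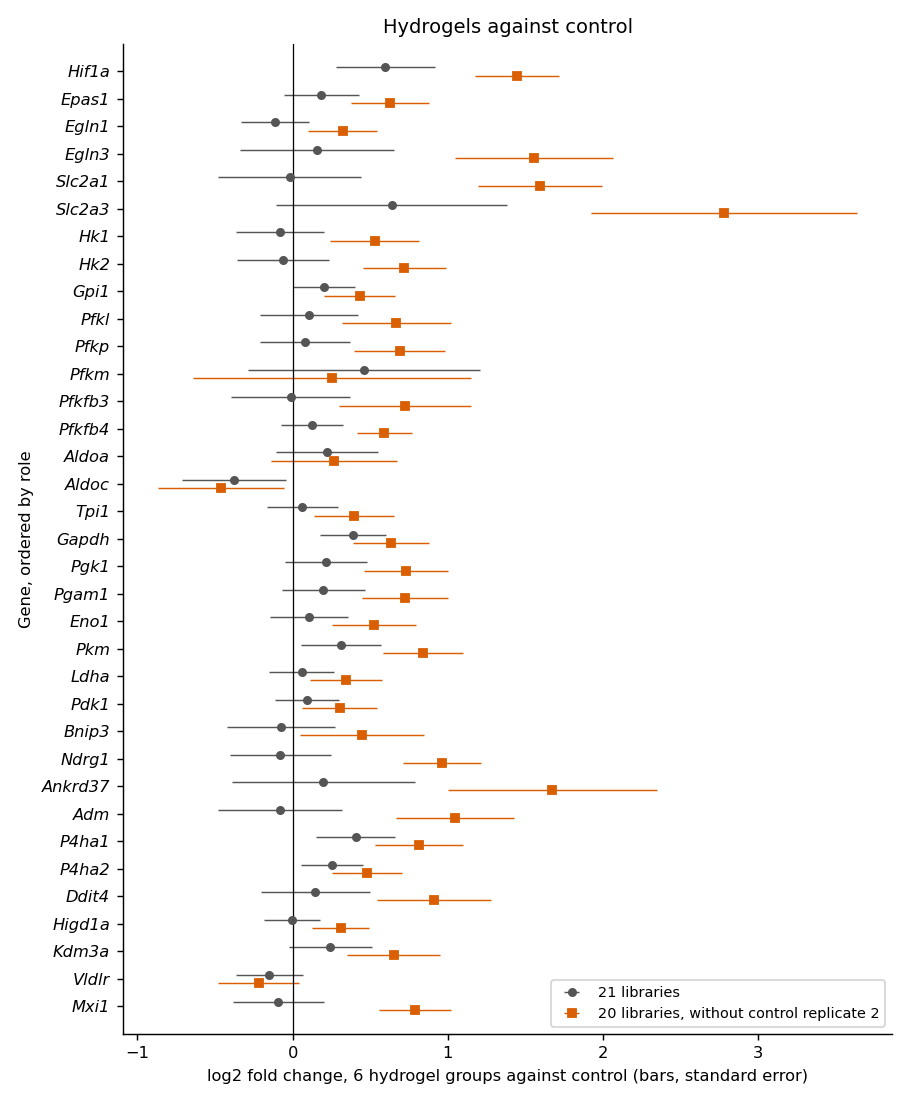
Log2 fold changes of the 6 hydrogel groups against control with their standard errors, for each member, ordered by role. Circles use all 21 libraries and squares leave out control replicate 2. The circles lie near 0, from -0.38 for Aldoc to 0.64 for Slc2a3, and the squares lie to their right in all but Pfkm, Aldoc and Vldlr.

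The second comparison took the 3 aFGF groups against the 3 bFGF groups over all pH. No member was called by edgeR, against 3.2% of 15811 genes, and DESeq2 and limma called 0 as well. At an unadjusted p under 0.05 there were 4 members, all lower with aFGF, against 13.4% of all genes that were lower at that level. In 30 of 35 members aFGF was lower, with a median log2 fold change of -0.19, against -0.002 over all genes, and of -0.18 without the 3 libraries with cartilage, liver and ovary markers. All 7 genes of lower glycolysis were on that side (median -0.12), as were 8 of the 9 of upper glycolysis (median -0.27). Hif1a (0.34 ± 0.23 (SE)) and Hk2 (0.36 ± 0.22 (SE)) lay on the other side, neither beyond the spread.

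Pdk1 came closest. It measured 60.6, 58.4 and 43.4 CPM in 6.4/aFGF, 47.1, 41.4 and 69.2 CPM in 7.4/aFGF and 42.9, 36.7 and 74.9 CPM in 8.4/aFGF. With bFGF it measured 49.6, 82.6 and 92.2 CPM at pH 6.4, 91.7, 92.5 and 76.4 CPM at pH 7.4 and 70.9, 69.0 and 60.6 CPM at pH 8.4, and the controls had 54.7, 75.4 and 46.6 CPM. The aFGF libraries were mostly below the bFGF libraries at the same pH, but replicate 3 of 7.4/aFGF and of 8.4/aFGF reached the levels of 8.4/bFGF, and replicate 1 of 6.4/bFGF was as low as aFGF. The log2 fold change was -0.51 ± 0.16 (SE) with an adjusted p of 0.0452 in edgeR, past the p threshold but under the fold threshold. Leaving out any of those 3 libraries moved it past both, with a log2 fold change of -0.59, -0.63 and -0.58, beside 4.45%, 4.38% and 1.68% of all genes called in those fits. Those libraries ran against the difference, so leaving each out had to enlarge it. Without 8.4/aFGF replicate 2 the log2 fold change was -0.44. The adjusted p ran from 0.0107 to 0.0926 over the alternatives in edgeR, DESeq2 and limma.

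P4ha2 measured 139.9, 111 and 91.3 CPM in 6.4/aFGF, 80.5, 74.7 and 141 CPM in 7.4/aFGF and 89.2, 74.6 and 117 CPM in 8.4/aFGF. With bFGF it measured 149.7, 193 and 158 CPM at pH 6.4, 123, 147 and 103 CPM at pH 7.4 and 87.8, 120.2 and 129 CPM at pH 8.4, beside 74.9, 126 and 89.5 CPM in the controls. The 3 libraries of 6.4/bFGF were the highest of all, and the remaining groups overlapped. Its log2 fold change was -0.37 ± 0.15 (SE) (edgeR, adjusted p = 0.11). Tpi1 gave -0.40 ± 0.17 (SE) and Bnip3 -0.56 ± 0.26 (SE), with adjusted p of 0.146 and 0.177 in edgeR. Neutrophil markers ranged from 3836 to 11135 CPM with aFGF and from 3365 to 12752 CPM with bFGF, so the 2 sets overlapped almost entirely. Macrophage markers, which ran against P4ha2, had a median of 5212 CPM with aFGF and 3879 CPM with bFGF, and their part in the result was not tested.

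**Figure D5:**
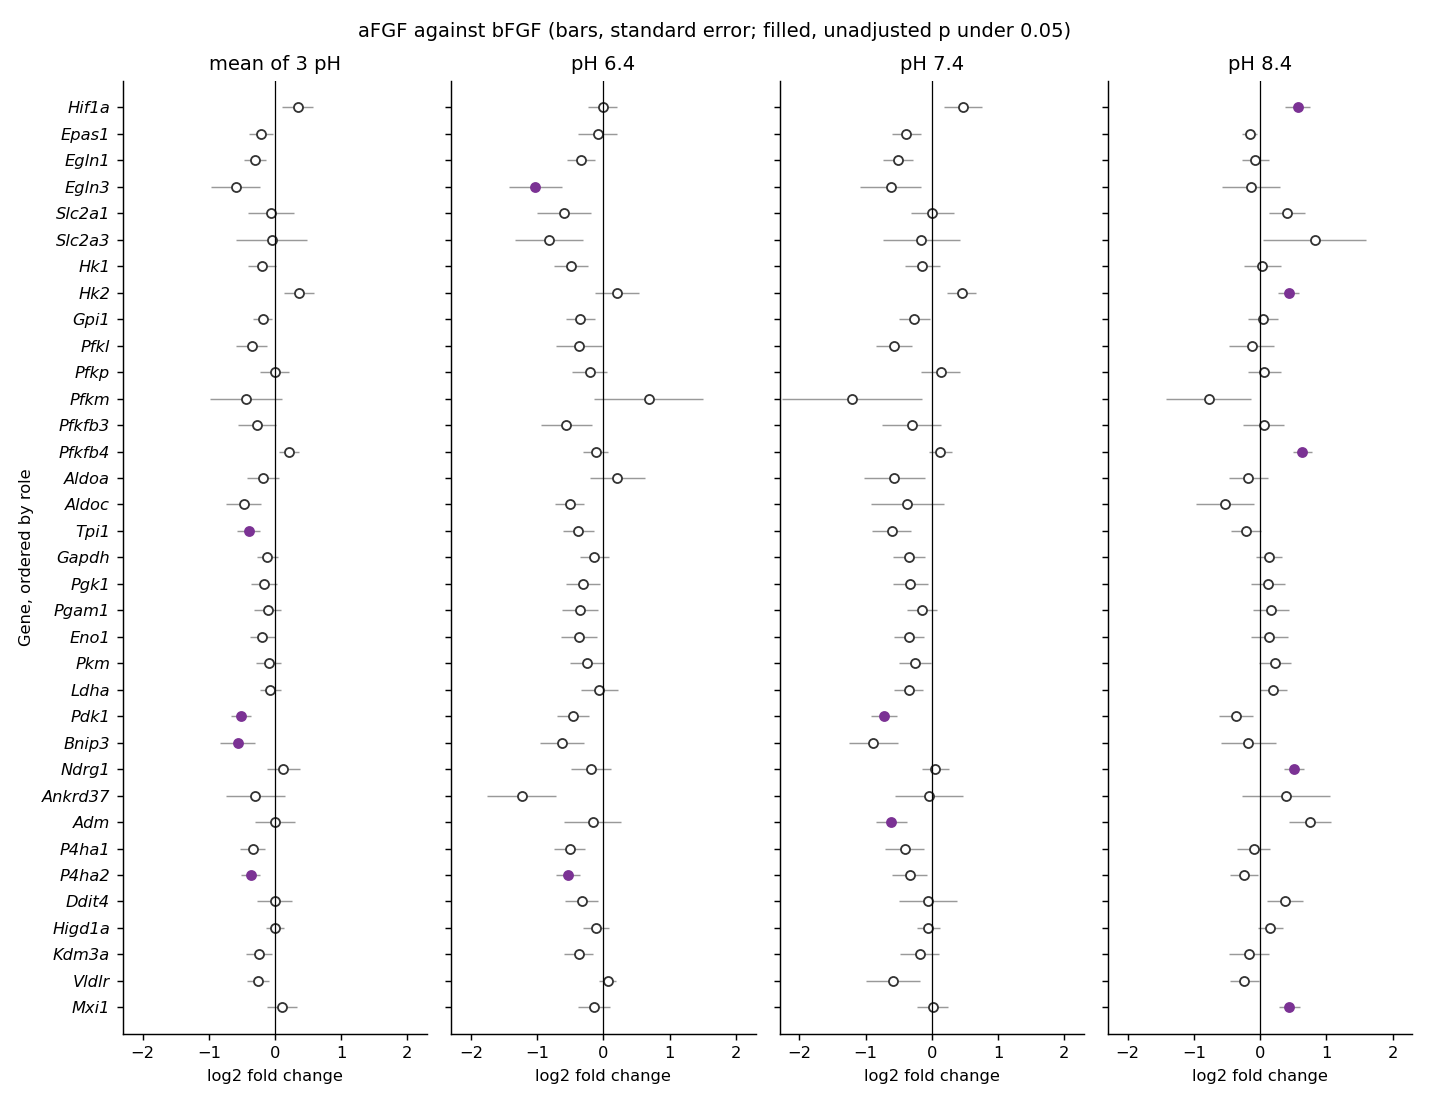
Log2 fold changes of aFGF against bFGF for each member, ordered by role, as the mean of the 3 pH values and at each pH. Bars are standard errors and filled circles have an unadjusted edgeR p under 0.05. At pH 6.4 and 7.4 most circles lie left of 0 and at pH 8.4 they lie on both sides, with 5 filled circles on the right.

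In the comparisons of single groups and their interactions, DESeq2 and limma called 0 members, except for Pfkfb4 in DESeq2 at pH 8.4. At pH 6.4, 6.4/aFGF and 6.4/bFGF were compared in their 6 libraries. No member was called by edgeR, which called 0.0% of the 14994 genes, and 2 had an unadjusted p under 0.05, against 8.16% of all genes. aFGF was lower in 31 of 35 members, with a median log2 fold change of -0.33. In Aldoc, Ankrd37 and P4ha2 the 2 groups did not overlap, which held for 15.0% of all genes. P4ha2, given above, gave -0.54 ± 0.18 (SE) (edgeR, adjusted p = 0.59). Egln3, the prolyl hydroxylase that HIF itself induces, measured 115, 67.1 and 46.2 CPM with aFGF and 93.3, 205 and 173 CPM with bFGF. Replicate 1 of 6.4/aFGF was above replicate 1 of 6.4/bFGF, and the groups overlapped there. Its log2 fold change was -1.03 ± 0.40 (SE) (edgeR, adjusted p = 0.598). The count moved with single libraries: without 6.4/bFGF replicate 1, where the neutrophil markers were lowest of the 18 hydrogel libraries, 15 members had an unadjusted p under 0.05, all lower with aFGF, against 3.18% of all genes, and without 6.4/aFGF replicate 2 or 6.4/bFGF replicate 2, 0 had. Replicate 1 of 6.4/bFGF was the lowest of its group in 33 of 35 members, so leaving it out had to raise bFGF in them.

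At pH 7.4, edgeR called 0 members of 35 and 0.0% of 15049 genes, and 2 members had an unadjusted p under 0.05, against 13.0% of all genes. aFGF was lower in 28 of 35, with a median log2 fold change of -0.32. Pdk1 was lower in every 7.4/aFGF library than in every 7.4/bFGF library, with -0.72 ± 0.20 (SE) (edgeR, adjusted p = 0.351). Adm, which codes for the vasodilator adrenomedullin, measured 38.9, 53.9 and 29.2 CPM with aFGF and 69.1, 55.7 and 62.4 CPM with bFGF. These did not overlap either, as for 20.8% of all genes, and the log2 fold change was -0.61 ± 0.23 (SE) (edgeR, adjusted p = 0.372). Without 7.4/aFGF replicate 3, the library with cartilage markers, 18 members had an unadjusted p under 0.05, all lower with aFGF, against 8.71% of all genes, and the median was -0.57, with 0 called by edgeR. That library was the highest of its group in 29 of 35 members, so leaving it out had to lower aFGF in them. Without 7.4/aFGF replicate 2 the median was -0.08, and without 7.4/aFGF replicate 1 there was 1 such member. Neutrophil markers in those libraries were at 4638 and 4703 CPM with aFGF and at 4599, 4984 and 12752 CPM with bFGF.

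At pH 8.4 the members were not lower with aFGF. edgeR called 0 members and 0.00665% of 15041 genes, and 5 members had an unadjusted p under 0.05, all higher with aFGF, against 11.7% of all genes that were higher at that level. The median over the members was 0.06 and 21 of 35 were higher. Pfkfb4 measured 71.6, 60.4 and 81.0 CPM with aFGF and 46.5, 51.8 and 40.3 CPM with bFGF. Every aFGF library was above every bFGF library, and the log2 fold change was 0.64 ± 0.15 (SE) (edgeR, adjusted p = 0.118). DESeq2 called this gene at an adjusted p of 0.0126, beside 5.24% of 18106 genes. Ndrg1 measured 266, 212 and 281 CPM with aFGF and 169, 162 and 207 CPM with bFGF, again without overlap, with a log2 fold change of 0.51 ± 0.15 (SE) (edgeR, adjusted p = 0.15). Hif1a, at 842, 686 and 579 CPM with aFGF and 406, 524 and 513 CPM with bFGF, and Hk2, at 158, 122 and 112 and 106, 99.0 and 90.4 CPM, did not overlap between the groups, as for 27.5% of all genes. Their log2 fold changes were 0.57 ± 0.19 (SE) and 0.43 ± 0.16 (SE), with adjusted p of 0.17 and 0.195 in edgeR. Without 8.4/aFGF replicate 3, 11 members had an unadjusted p under 0.05, against 23.1% of all genes, 5 of them higher with aFGF, and 10 of 35 members were higher. The median over the members was -0.20 in that fit, 0.26 without 8.4/aFGF replicate 2 and 0.34 without both libraries with liver and ovary markers.

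The pH was then compared within each growth factor, with pH 7.4 as the common reference, so the 2 comparisons of a growth factor share their 7.4 libraries. For 6.4/aFGF against 7.4/aFGF, edgeR called 0 members and 0.0% of 15019 genes, and 1 member had an unadjusted p under 0.05, against 4.99% of all genes. The members lay on both sides, 17 of 35 higher at pH 6.4, with a median log2 fold change of -0.02. This balance rested on single libraries: without 7.4/aFGF replicate 3, which held the cartilage markers, 28 of 35 were higher with a median of 0.26, and without 7.4/aFGF replicate 2, 5 were higher with a median of -0.20. Pfkfb4 was that member, with 52.2, 45.8 and 48.2 CPM at pH 6.4 and 73.8, 53.9 and 74.2 CPM at pH 7.4. All pH 6.4 libraries were lower, as for 11.0% of all genes that did not overlap in either direction, and the log2 fold change was -0.46 ± 0.15 (SE) (edgeR, adjusted p = 0.832). Pfkp, the platelet phosphofructokinase, measured 159, 109 and 96.8 CPM at pH 6.4 and 161, 112 and 190.1 CPM at pH 7.4, which overlapped, and gave -0.34 ± 0.26 (SE), from -0.58 without 6.4/aFGF replicate 1 to -0.16 without 7.4/aFGF replicate 3. All 4 genes of glucose uptake and phosphorylation were lower at pH 6.4, each within its error, with a median of -0.23.

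For 6.4/bFGF against 7.4/bFGF, edgeR called 0 members and 0.0% of 14976 genes, and 2 members had an unadjusted p under 0.05, against 8.89% of all genes. P4ha2 was higher in every 6.4/bFGF library, with 0.44 ± 0.16 (SE) (edgeR, adjusted p = 0.549), a lack of overlap seen in 15.2% of all genes. Aldoa measured 1042, 1276 and 1556 CPM at pH 6.4 and 2508, 2459 and 1357 CPM at pH 7.4. Replicates 1 and 2 of 7.4/bFGF were high, replicate 3 was within the range of pH 6.4, and the log2 fold change was -0.69 ± 0.27 (SE) (edgeR, adjusted p = 0.558). Pfkm followed the same libraries, with 92.4, 62.1 and 42.7 CPM at pH 6.4 and 315, 313 and 19.4 CPM at pH 7.4. Skeletal muscle markers summed to 3366, 2258 and 3295 CPM at pH 6.4 and 17335, 18268 and 327 CPM at pH 7.4, and so stood high in the same 2 libraries. Without 7.4/bFGF replicate 3, Pfkm was called lower at pH 6.4 (edgeR, log2 fold change -2.23, adjusted p = 0.0256), the 1 member called there, beside 1.83% of all genes, and the part of muscle in this was not tested.

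For 8.4/aFGF against 7.4/aFGF, 0 members were called by edgeR and 0 had an unadjusted p under 0.05, against 0.0% and 3.01% of the 14968 genes. The 2 smallest p-values were those of Adm and Slc2a3. Adm measured 80.2, 46.0 and 41.0 CPM at pH 8.4 beside 38.9, 53.9 and 29.2 CPM at pH 7.4 and gave 0.45 ± 0.32 (SE). Slc2a3 measured 123, 51.9 and 179 CPM at pH 8.4 and 101, 67.2 and 70.0 CPM at pH 7.4, and gave 0.57 ± 0.43 (SE). Both overlapped. With a library left out, Adm ran from 0.10 (without 8.4/aFGF replicate 1) to 0.71 (without 7.4/aFGF replicate 2) and Slc2a3 from 0.15 (without 8.4/aFGF replicate 3) to 0.93 (without 8.4/aFGF replicate 2). With 7.4/aFGF replicate 3 and 8.4/aFGF replicate 2 left out, the libraries with cartilage and liver markers, 9 members had an unadjusted p under 0.05, all higher at pH 8.4, against 1.85% of all genes. Of these 2 libraries, the first was the highest of its group in 29 of 35 members and the second the lowest in 28. The larger upward shift thus followed from the choice of libraries. With no library left out, 23 of 35 members were already higher at pH 8.4. The libraries left had neutrophil markers at 9471 and 11135 CPM at pH 8.4 and at 4638 and 4703 CPM at pH 7.4, which did not overlap, and their part in the result was not tested. There 33 of 35 members were higher and the median log2 fold change was 0.51 in place of 0.04, with 0 called by edgeR.

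In 8.4/bFGF against 7.4/bFGF most members lay on the same side. edgeR called 0 members and 0.0% of 15092 genes, with a lowest adjusted p of 0.861 among the members. At an unadjusted p under 0.05 there were 14 of 35, all lower at pH 8.4, against 2.99% of all genes that were lower at that level, and DESeq2 had 15 at that level with 0 called. In 33 of 35 members pH 8.4 was lower, with a median log2 fold change of -0.32, against -1.52e-05 over all genes. The 14 were 5 of the 7 genes of lower glycolysis (Gapdh, Pgk1, Eno1, Pkm and Pdk1), 4 of the 9 of upper glycolysis (Gpi1, Pfkl, Pfkfb4 and Tpi1), Hk1, Egln1, Bnip3, Ndrg1 and Adm. In 15 members every library at pH 8.4 was below every library at pH 7.4, against 6.55% of all genes.

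Adm measured 43.9, 24.0 and 33.1 CPM at pH 8.4 and 69.1, 55.7 and 62.4 CPM at pH 7.4, with a log2 fold change of -0.88 ± 0.22 (SE) (edgeR, adjusted p = 0.861). Egln1, the main oxygen-sensing prolyl hydroxylase, measured 107, 107 and 98.3 CPM at pH 8.4 and 145, 139 and 120.1 CPM at pH 7.4, and gave -0.36 ± 0.10 (SE) (edgeR, adjusted p = 0.861). In both genes the 2 groups were apart. Pkm measured 1577, 1874 and 1543 CPM against 2260.0, 2300.0 and 2241 CPM and gave -0.43 ± 0.13 (SE) (edgeR, adjusted p = 0.861), with the 3 libraries at pH 7.4 close to each other. Pgk1 measured 427, 491 and 409 CPM against 566, 588 and 589 CPM and gave -0.38 ± 0.11 (SE) (edgeR, adjusted p = 0.861). Each was a shift of less than 2 times.

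The members moved together between libraries (median r of 0.712 with the group means removed), so the 14 are not separate observations. The same limit holds for the counts of members in the other comparisons. The 14 also depended on the small spread of these 6 libraries. With the spread estimated over all 21 libraries, 0 members had an unadjusted p under 0.05 in edgeR and the median log2 fold change was -0.35. Leaving out a library gave between 7 and 14 such members, with a median from -0.39 to -0.23. With limma on log2(FPKM + 1) there were 5. Neutrophil markers summed to 3685, 9487 and 5444 CPM at pH 8.4 and 4599, 4984 and 12752 CPM at pH 7.4, which overlapped, and 8.4/bFGF replicate 2 held the ovary markers. Without that library the count was 14 and the median -0.39.

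Whether pH acted differently with the 2 growth factors was tested as an interaction in 12 libraries. At pH 6.4 against 7.4, edgeR called 0 members and 0.0% of 15449 genes, and 0 members had an unadjusted p under 0.05, against 6.09% of all genes. Ankrd37 had the smallest p, with a difference of log2 fold changes (aFGF minus bFGF) of -1.21 ± 0.79 (SE) and an unadjusted p of 0.157. It measured 9.52, 9.37 and 2.72 CPM in 6.4/aFGF and 7.45, 5.73 and 21.1 CPM in 7.4/aFGF, with 10.0, 16.6 and 24.6 CPM in 6.4/bFGF and 12.0, 8.87 and 14.4 CPM in 7.4/bFGF. All 4 groups overlapped apart from the 2 at pH 6.4, which did not overlap in 15.0% of all genes either. Without 7.4/aFGF replicate 3 the difference for Ankrd37 was -0.42, and the median over the members turned from -0.12 to 0.22. Vldlr measured 28.6, 26.0 and 25.9 and 20.1, 15.4 and 37.5 CPM with aFGF, and 29.4, 24.4 and 23.7 and 48.4, 38.7 and 22.3 CPM with bFGF, at pH 6.4 and 7.4, and gave 0.63 ± 0.46 (SE), from 0.37 without 7.4/bFGF replicate 1 to 1.08 without 7.4/aFGF replicate 3. Its highest libraries, replicates 1 and 2 of 7.4/bFGF, were also those with high muscle markers.

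At pH 8.4 against 7.4, edgeR called 0 members and 0.0% of 15502 genes, and 1 member had an unadjusted p under 0.05, against 4.73% of all genes. The interaction was positive in 31 of 35 members, with a median of 0.39 on the log2 scale, and in all 7 genes of lower glycolysis (median 0.46). Adm was that member, with 1.34 ± 0.43 (SE) (edgeR, adjusted p = 0.993), and Pfkfb4 followed with 0.49 ± 0.24 (SE) (edgeR, adjusted p = 0.993). Without the 3 libraries with cartilage, liver and ovary markers, 19 members had an unadjusted p under 0.05, against 2.87% of all genes with a positive interaction at that level, all 35 were positive and the median was 0.87, with 0 called in edgeR. In their groups 7.4/aFGF replicate 3 was highest in 29 of 35 members, 8.4/aFGF replicate 2 lowest in 28 and 8.4/bFGF replicate 2 highest in 20. Leaving out each of them moves the interaction up in most of those members, so the rise of the median from 0.39 to 0.87 followed from that choice. The direction was already positive in 31 of 35 members with no library left out. The neutrophil markers moved the same way in the libraries left, at 9471 and 11135 CPM in 8.4/aFGF beside 4638 and 4703 CPM in 7.4/aFGF, and at 3685 and 5444 CPM in 8.4/bFGF beside 4599, 4984 and 12752 CPM in 7.4/bFGF. Their part in the result was not tested. Without 8.4/aFGF replicate 3 the median was 0.10. The size of the interaction thus changed with the aFGF libraries that entered.

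A test of any difference among the 7 groups called 0 members and 0.114% of 15811 genes in edgeR, and 0 members had an unadjusted p under 0.05, against 19.3% of all genes. The likelihood ratio test of DESeq2 and limma also called 0 members, with 1 and 0 at an unadjusted p under 0.05. The smallest p-values were 0.0531 for P4ha2, 0.0855 for Pdk1, 0.176 for Pfkfb4, 0.273 for P4ha1, 0.324 for Tpi1 and 0.345 for Hif1a in edgeR. P4ha1, which codes for another form of the catalytic subunit that P4ha2 codes for, measured 107, 243 and 134 CPM in the controls. Its highest group mean was in 6.4/bFGF (285 ± 55.9 CPM, SD) and its lowest in the controls (161 ± 71.7 CPM, SD). The 2 groups overlapped, since control replicate 2 was above replicate 1 of 6.4/bFGF. The lowest and highest of the 7 group means of Tpi1 were 506 ± 159.7 CPM in 8.4/aFGF and 786 ± 57.4 CPM in 7.4/bFGF (mean ± SD). Hif1a ranged from 395 ± 309 CPM in the controls to 702 ± 133 CPM in 8.4/aFGF (mean ± SD). Without control replicate 2, Hif1a was called (edgeR, adjusted p = 0.0427), the 1 member of 35, against 5.38% of all genes.

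Another 31 hypoxia genes and 18 glycolysis isozymes and flanking enzymes were followed beside the members. In the hydrogels against control edgeR called 0 of either list, and 4 of the 31 and 1 of the 17 tested isozymes had an unadjusted p under 0.05, against 16.7% of all genes. Lox, which crosslinks collagen, measured 440.1, 885 and 354 CPM in the controls and had a log2 fold change of 0.86 ± 0.24 (SE) (edgeR, adjusted p = 0.138). DESeq2 called Lox at an adjusted p of 0.0176. Hmox1, heme oxygenase, had 0.76 ± 0.26 (SE) (edgeR, adjusted p = 0.191). Among the isozymes, Pdk3 had 0.25 ± 0.11 (SE) and Pdhb, a subunit of pyruvate dehydrogenase, -0.42 ± 0.20 (SE). Without control replicate 2, 8 of the 31 were called by edgeR, all higher with hydrogel, against 3.62% of all genes called higher, among them Lox, Slc16a3, Slc16a1, Car9 and Hmox1. Slc16a3, the lactate exporter, measured 86.8, 738 and 83.5 CPM in the controls and gave 2.19 ± 0.48 (SE) there. None of the 18 isozymes tested was called in that fit by edgeR, and 5 had an unadjusted p under 0.05, against 28.6% of all genes.

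For aFGF against bFGF over all pH, edgeR called 1 of the 31 other hypoxia genes, against 3.2% of all genes. This was Hmox1, which was higher with aFGF. It measured 2428, 2098 and 1557 CPM in 8.4/aFGF and 614, 526 and 529 CPM in 8.4/bFGF, a difference of 1.89 ± 0.20 (SE) (edgeR, adjusted p = 0.0645). DESeq2 called this difference (adjusted p = 9.4e-17), as did edgeR with the spread of all 21 libraries (adjusted p = 0.0439) and without 8.4/aFGF replicate 3 (adjusted p = 0.0287). At pH 6.4 the difference was -0.12 ± 0.35 (SE) and at pH 7.4 0.17 ± 0.29 (SE). Over all pH its log2 fold change was 0.65 ± 0.19 (SE) (edgeR, adjusted p = 0.0368), with an adjusted p from 0.00967 to 0.0786 over the alternatives. In 6.4/bFGF against 7.4/bFGF, 9 of the 16 tested isozymes had an unadjusted p under 0.05, 8 of them lower at pH 6.4, against 8.89% of all genes, with 0 called by edgeR. Pdk4 gave -2.36 ± 0.39 (SE) and Slc2a4, the insulin-responsive glucose transporter of muscle and fat, -2.08 ± 0.58 (SE), beside the muscle markers given above for these groups. DESeq2 called Pdk4, Slc2a4 and Pdk2 (adjusted p of 6.2e-07, 0.0174 and 0.0186) among 113 of 17876 genes. Without 7.4/bFGF replicate 3, edgeR called Pdk4, Eno3 and Pgam2 (adjusted p of 0.00547, 0.00519 and 0.00331), beside 1.83% of all genes.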

How the data were processed

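RNA of mouse skin wounds on day 4 was sequenced in 21 libraries, with 3 labelled as biological replicates in each of 7 groups. Whether these are separate mice is not stated. Libraries were made with a stranded mRNA kit, per the labels. For each gene the authors deposited its raw count of reads, not normalized, and FPKM values computed by the authors from the same counts. The build is GRCm39 per the submitters' processing notes. The annotation, the aligner, the counter and its handling of shared reads are not given in the sources used here. No sequence or coordinate is printed, since the RefSeq table at hand (GRCm38.p6, which held all 35 members) is of another build.

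Groups were taken from the sample labels. The counts were tested with edgeR 4.0.16 in R 4.3.3 (TMM, filterByExpr by group, quasi-likelihood test, two-sided, prior count of 2 for log2 CPM), with adjustment over all genes tested. A gene was called at a log2 fold change past 0.58 with an adjusted p below 0.05. Comparisons of hydrogels with control, of aFGF with bFGF over all pH and among the 7 groups used 21 libraries and a mean per group. The others used the libraries compared. The alternatives were DESeq2 1.42.0 with default settings, no fold threshold, a minimum of 10 counts in every library, no filter, RLE normalization, the replicate number as a block, limma 3.58.1 on log2(FPKM + 1) for genes with a mean FPKM of at least 1, all 21 libraries, leaving out each library, and leaving out the 3 libraries with genes of other tissues. The scripts were tested on simulated data.

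Marker relations used Pearson's r and Spearman's rho on log2 values with 100000 permutations in Python 3.11.15 with numpy 2.4.6. The members, the lists of genes and markers and the comparisons were chosen with earlier results of these data known. The genes named are, in each comparison, the called members or the 2 with the smallest p, the 6 with the smallest p among the 7 groups, Hif1a and Epas1, the members of highest and lowest FPKM, and likewise the called genes, or else the 2 smallest p, of the other lists. The remaining genes, such as Slc2a1, Pkm, Pgk1, Pfkm, Bnip3, Hk2, Slc16a3, Pdk4 and Slc2a4, were named after their values were seen. Some results of the other lists are not reported here.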

Additional observations from a re-analysis of the deposited data

How the results depend on the processing

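Of the 12 counts of members called, those not named here stayed at 0 under every alternative run. Leaving out single libraries gave 0 to 7 members for the hydrogels against control (7 without control replicate 2), 0 to 1 for aFGF against bFGF over all pH (1 without 7.4/aFGF replicate 3, 8.4/aFGF replicate 3 or 6.4/bFGF replicate 1), 0 to 1 for any difference among the 7 groups (1 without control replicate 2) and 0 to 1 for 6.4/bFGF against 7.4/bFGF (1 without 7.4/bFGF replicate 3). The count for aFGF against bFGF over all pH was 1 with no fold threshold (Pdk1), and that for 8.4/aFGF against 8.4/bFGF was 1 with DESeq2 (Pfkfb4). The cause of these changes was not tested. Calls over all genes also depended on the tool: the 3 overall comparisons went from 1, 506 and 18 genes in edgeR to 171, 777 and 2030 in DESeq2 and to 1, 212 and 14 in limma, and the other 9 from 0 or 1 gene in edgeR to between 4 and 949 in DESeq2.

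Some log2 fold changes of hydrogels against control changed sign. Slc2a1 was at 0.11 with the replicate block, at 0.55 with limma and between -0.45 and 1.59 with a library left out. Ndrg1 was at 0.23 with limma and between -0.44 and 0.96 with a library left out, Mxi1 at 0.13 with limma and between -0.40 and 0.79, and Pfkfb4 between -0.11 and 0.59. With all 21 libraries these 4 values were within their errors.

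The replicate numbers of the labels were checked for pairing. Over 63 pairs of the same number the correlation of deviations from the group means ran from -0.638 to 0.423 (median 0.00889, against -0.00819 for different numbers), and 5 of 21 libraries correlated best with their own number, so the numbers were read as names. With the replicate number as a block, 0 members were called in each of the 12 comparisons, and the block changed no other call of a member. Each group had 3 libraries, which differed widely within a group. The 1 shift of a member with an adjusted p under 0.05 in edgeR, over all genes, was that of Pdk1. It was seen in aFGF against bFGF over all pH, with no library left out. The lowest member count was 79, so counting error was small beside the spread between libraries of a group.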
